A study of Mus musculus with 6 samples.

Results

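The genes described here act in synaptic vesicle endocytosis and were measured in mouse hippocampus with and without shRNAs against hnRNP DL. They are the dynamins Dnm1, Dnm2 and Dnm3, the BAR-domain genes Amph, Bin1 and Sh3gl2, the synaptojanins Synj1 and Synj2 and the intersectins Itsn1 and Itsn2. They were chosen by name, with earlier results of these data known, as 10 of the 52550 genes in the count table. All 10 were among the 17621 genes with enough counts to be tested. The splicing table listed 100 events in 9 of the 10 genes and none in Sh3gl2, out of 40961 events in all, and 64 of the 100 had enough junction counts to be tested. Both groups were male wild-type C57BL/6 J mice that were injected at 8 weeks of age with adeno-associated virus (AAV) into the CA1 area on both sides. The control group (3 libraries) received a control shRNA and the L-DL KD group (3 libraries) received shRNAs against the long isoform of hnRNP DL, an RNA-binding protein. The study's methods place the shRNAs in tandem behind H1 promoters, with zsGreen behind a CamkIIα promoter, and give a higher titre for the control virus. RNA came from hippocampal tissue, and whether it was limited to the injected area is not given in the sources used here.

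Library totals ranged from 16052529 to 17913064 counts. Hnrnpdl, the targeted gene, lay at 177 ± 6.42 CPM (counts per 1000000 counts of a library, with TMM scaling, given as mean ± SD with n = 3) in the controls and at 180.1 ± 33.9 CPM in the other group (adjusted p = 0.898 by edgeR). The count of the whole gene was therefore not measurably lower. It does not separate the long isoform, at which the shRNAs were aimed, from the short one. The study judged the knockdown by immunoblots of L-DL protein in the hippocampus and describes the mice as having reduced L-DL. The second group is written below as the libraries labelled KD. The labels name this group a knockdown in one field and a null genotype in another. The titles of the control libraries call them WT and name no shRNA, so the control shRNA is taken from the study's methods. Tests across genes were edgeR's quasi-likelihood tests with Benjamini-Hochberg adjustment, and a gene was called at an adjusted p under 0.05. The labels do not say whether replicates came from separate animals, so the p-values measure the spread between these libraries only.

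Nerve terminals recover the membrane of fused vesicles by clathrin-mediated endocytosis and related routes. Intersectins act as scaffolds that gather coat proteins, BAR-domain proteins such as amphiphysin and endophilin bind curved membrane at the neck of the bud, dynamins cut the neck by GTP hydrolysis, and synaptojanins dephosphorylate phosphoinositides so that the coat is shed. Dnm1, Amph and Sh3gl2 are most abundant in neurons, whereas Dnm2 is made by nearly all cell types. Several of these genes carry short exons that are included mainly in neurons.

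The sequences of some short alternative segments are shown because much of the splicing description below concerns them. They were read from GENCODE M21 transcripts on GRCm38, run 5′ to 3′ on the gene's strand, and have the alternative segment in capitals between bases of the neighbouring exon sequence in lower case.
Itsn1, exon 20 of Itsn1-202, chr16:91842628-91842642, plus strand: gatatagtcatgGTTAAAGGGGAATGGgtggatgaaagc
Dnm3, exon 17 of Dnm3-202, chr1:162045386-162045397, minus strand: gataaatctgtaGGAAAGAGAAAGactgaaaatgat
Dnm2, exon 14 of Dnm2-201, chr9:21490658-21490669, plus strand: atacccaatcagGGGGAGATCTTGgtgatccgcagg
Dnm1, exon 14 of Dnm1-201, chr2:32323179-32323190, minus strand: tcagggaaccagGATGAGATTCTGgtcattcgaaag
Amph, end of exon 16 of Amph-204, chr13:19121320-19121331, plus strand: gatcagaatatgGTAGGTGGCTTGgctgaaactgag
Synj1, exon 28 of Synj1-202, chr16:90947015-90947053, minus strand: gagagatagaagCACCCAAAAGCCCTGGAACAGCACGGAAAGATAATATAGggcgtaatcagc
Synj1, exon 26 of Synj1-202, chr16:90949699-90949737, minus strand: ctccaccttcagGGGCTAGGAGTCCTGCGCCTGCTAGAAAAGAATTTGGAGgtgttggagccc
Synj1, start of exon 12 of Synj1-207, chr16:90974067-90974075, minus strand: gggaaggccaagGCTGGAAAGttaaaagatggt
Synj1, exon 32 of Synj1-202, chr16:90940473-90940496, minus strand: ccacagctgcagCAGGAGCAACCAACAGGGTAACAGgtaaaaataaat
Each of the segments shown has a length that is a multiple of 3, between 9 and 39 nt. Other short segments are not shown, such as an 8 nt exon of Itsn1 whose length is not a multiple of 3. The last segment shown holds the stop codon of Synj1-202. The 12 nt exons of Dnm1 and Dnm2 are exon 14 in both genes and share 8 of 12 bases, while the 12 nt exon of Dnm3 is its exon 17.

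Of the 10 genes, 6 fell and 1 rose in the libraries labelled KD. Dnm1, Dnm3, Amph, Sh3gl2, Synj1 and Synj2 fell to between 59.4 and 72.1% of the control level, Dnm2 rose to 134% of it, and Bin1, Itsn1 and Itsn2 were not called. Of all genes tested, 15.0% were called lower and 15.6% higher. The median log2 fold change was -0.48 over the 10 genes and 0.01 over all genes tested. The 3 libraries of one group lay wholly above or below those of the other in the 7 called genes (6 below, against 23.4% of all genes tested, and 1 above, against 23.8%).

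**Figure D1:**
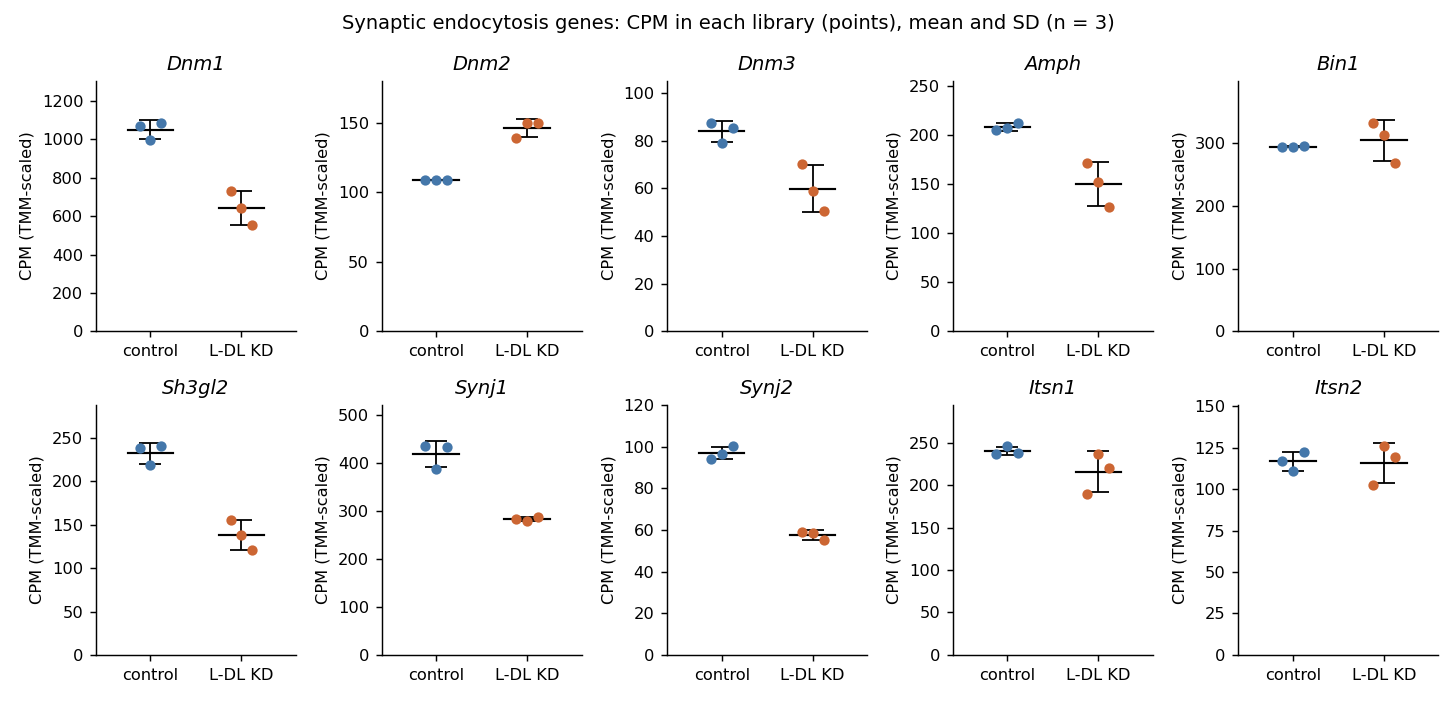
CPM (TMM-scaled, linear axis from 0) of the 10 genes in each of the 3 control and 3 L-DL KD libraries (points), with the group mean and SD. The groups lie apart in Dnm1, Dnm2, Dnm3, Amph, Sh3gl2, Synj1 and Synj2, with Dnm2 alone higher in the L-DL KD libraries, and overlap in Bin1, Itsn1 and Itsn2.

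Among the dynamins, Dnm1 (ENSMUSG00000026825, chr2:32308471-32353338 on GRCm38, as for all genes here), the main dynamin of nerve terminals, lay at 1072, 995 and 1087 CPM in the control libraries and at 729, 644 and 554 CPM in the libraries labelled KD. All 3 of the latter were below all controls, with a log2 fold change of -0.71 (standard error 0.10, adjusted p = 0.00199). Dnm3 (ENSMUSG00000040265, chr1:161982453-162478034), a dynamin found mostly in brain and testis, had 87.6, 79.1 and 85.2 CPM in the controls against 70.3, 58.9 and 50.6 CPM. Its log2 fold change of -0.49 (standard error 0.12, adjusted p = 0.0160 by edgeR) had the largest adjusted p of the called ones. It missed the threshold without control replicate 1 (adjusted p = 0.0626), control replicate 3 (0.0575) or L-DL KD replicate 2 (0.0531), and the adjusted p ranged from 0.000845 to 0.0626 over its 11 alternatives. Dnm2 (ENSMUSG00000033335, chr9:21424908-21507759), the dynamin that most cells use, went the other way. It lay at 109, 108 and 109 CPM in the controls and at 139, 149 and 149.9 CPM in the libraries labelled KD, a log2 fold change of 0.43 (standard error 0.06, adjusted p = 0.00197).

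Among the BAR-domain genes, Sh3gl2 (ENSMUSG00000028488, chr4:85205126-85639195), which encodes endophilin A1, had 239, 218 and 240.2 CPM in the controls and 155, 139 and 121 CPM in the libraries labelled KD. The groups did not overlap, with a log2 fold change of -0.75 (standard error 0.10, adjusted p = 0.00121). Amph (ENSMUSG00000021314, chr13:18948205-19150921), neuronal amphiphysin, fell from 205, 207 and 213 CPM to 172, 152 and 127 CPM, a log2 fold change of -0.47 (standard error 0.11, adjusted p = 0.0126). Bin1 (ENSMUSG00000024381, chr18:32377230-32435737), the amphiphysin relative that is also made by oligodendrocytes, microglia and muscle, had 294, 294 and 296 CPM in the controls and 333, 313 and 269 CPM in the other group. The control libraries were nearly equal and lay inside the range of the libraries labelled KD. Bin1 had a log2 fold change of 0.05 (standard error 0.09, adjusted p = 0.701 by edgeR), and the change was -0.015 without L-DL KD replicate 1.

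Both synaptojanins fell. Synj1 (ENSMUSG00000022973, chr16:90936092-91011308), the phosphatase of nerve terminals, had 435, 388 and 434 CPM in the controls against 284, 279.5 and 287 CPM, a log2 fold change of -0.56 (standard error 0.07, adjusted p = 0.000961). The 3 libraries labelled KD differed from each other by less than the controls did. Synj2 (ENSMUSG00000023805, chr17:5941280-6044290), its less abundant relative, had 94.2, 96.4 and 100.1 CPM against 59.2, 58.4 and 55.0 CPM, a log2 fold change of -0.75 (standard error 0.07, adjusted p = 0.000261). Synj2 had the smallest adjusted p of the 10 genes.

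The intersectins were not called. Itsn1 (ENSMUSG00000022957, chr16:91729281-91920597), the intersectin that is most abundant in brain, had 236, 246 and 238 CPM in the controls and 189.8, 237 and 221 CPM in the libraries labelled KD, with 1 library of the latter group inside the control range. Itsn1 had a log2 fold change of -0.15 (standard error 0.09, adjusted p = 0.228). Itsn2 (ENSMUSG00000020640, chr12:4592638-4713962), which is expressed in many tissues, had 117, 111 and 122 CPM against 103, 126 and 119 CPM, so that its groups overlapped. Itsn2 had a log2 fold change of -0.01 (standard error 0.09, adjusted p = 0.949). The value was 0.023 with scaling by library size, 0.024 without control replicate 3 and 0.074 without L-DL KD replicate 1.

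Divided by the length of all annotated exons, the control level was highest for Dnm1, at 200.4 ± 9.37 CPM per kb (SD, n = 3), followed by Bin1 (71.6), Synj1 (51.8), Amph (46.0), Sh3gl2 (35.5), Dnm2 (20.4), Synj2 (11.6), Itsn1 (10.2), Itsn2 (8.59) and Dnm3 (3.44 CPM per kb). No neighbours in this order overlapped in the control libraries. In the libraries labelled KD, Dnm1 stayed first at 122 ± 16.6 CPM per kb and Bin1 second at 74.1 ± 7.91. Synj1 (35.1), Amph (33.2) and Dnm2 (27.4 CPM per kb) followed, and the ranges of Amph overlapped with those of both neighbours. Dnm2 thus stood above Sh3gl2 (21.1 CPM per kb) in this group and below it in the controls. The exon lengths of Dnm3 (24452 nt) and Itsn1 (23425 nt) are the longest of the 10, which lowers their level on this scale.

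The ratio of 2 related genes within a library does not depend on the scaling of that library. The ratio of Dnm2 to Dnm1 counts, on the log2 scale, was -3.30, -3.20 and -3.32 in the controls and -2.39, -2.11 and -1.89 in the libraries labelled KD. The means differed by 1.15, so that the ratio of Dnm2 to Dnm1 was 2.21 times as high. The log2 ratio of Bin1 to Amph was 0.50 ± 0.02 against 1.03 ± 0.07 (SD, n = 3), higher in the other group, a difference of 0.53. That of Sh3gl1, the endophilin of most tissues, to Sh3gl2 was -1.92 ± 0.15 against -1.38 ± 0.35, a difference of 0.54 with 1 library of the second group close to the highest control. In each of these pairs the ratio of the more widely expressed gene to the neuronal one was higher in all 3 libraries labelled KD. Not every pair went this way, and the ratio of Synj2 to Synj1, given below, was lower in all 3.

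The other ratios differed by less. The log2 ratio of Dnm3 to Dnm1 differed by 0.22, that of Itsn2 to Itsn1 by 0.15, and that of Synj2 to Synj1 by -0.19. All 6 ratios lay apart between the groups. How often the ratios of other gene pairs lie apart was not computed. Among single genes tested, 23.4% lay apart below and 23.8% above the controls. The two-sided exact permutation test over 3 against 3 libraries gave p = 0.1 (adjusted 0.1 over the 6 ratios), the smallest p that this design allows. The pairs were formed by gene family.

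**Figure D2:**
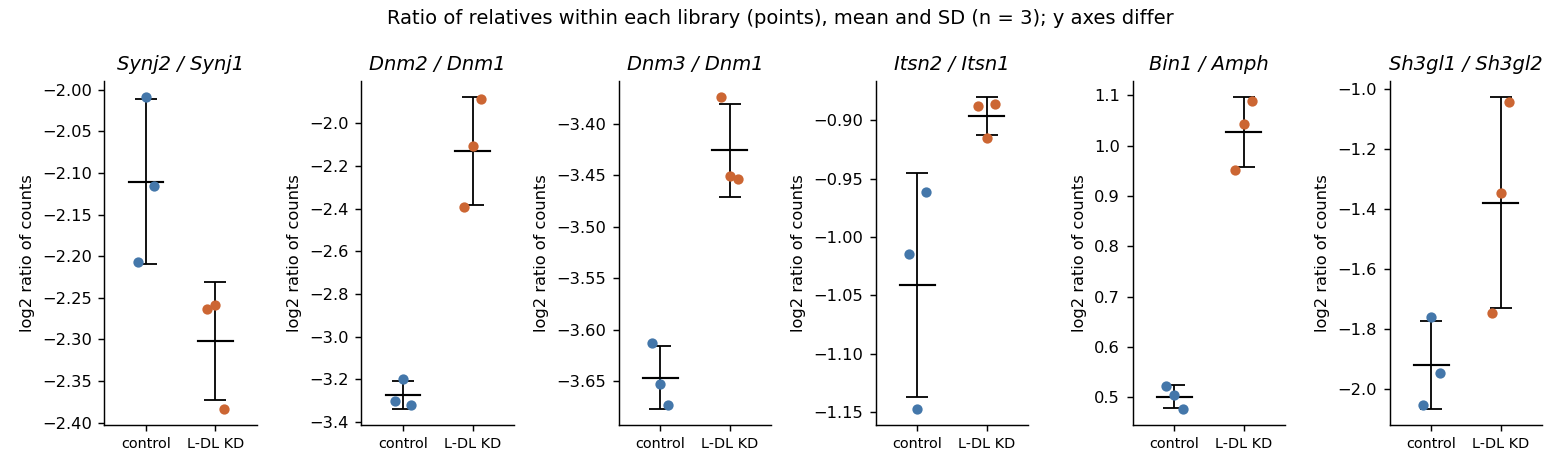
Log2 ratio of the counts of 2 related genes within each library (points), with mean and SD over 3 libraries of each group, on a separate y axis for each pair. All 6 ratios lie apart, and the Dnm2 to Dnm1 ratio differs most, by 1.15.

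Markers of several cell types also differed between the groups. The summed level of 7 neuronal markers ranged from 7943 to 8285 CPM in the controls and from 4847 to 5359 CPM in the libraries labelled KD, and 5 of the 7 fell. Camk2a was the largest part of this sum, with a mean of 3998 CPM in the controls and 2406 CPM in the libraries labelled KD. On the same list Syn1 was not called (log2 fold change -0.20), and Nefl, a neurofilament gene, rose (0.88). The 3 interneuron markers all fell, from a sum of 436 to 489 CPM to one of 155 to 288 CPM. All 8 microglial markers rose, from a sum of 1122 to 1399 CPM to one of 2377 to 3022 CPM, and both markers of oligodendrocyte precursors rose, from 89.8 to 95.1 CPM to 129 to 138 CPM. The 6 oligodendrocyte markers overlapped (7565 to 8082 against 6539.8 to 9558 CPM), with 1 called higher. Of 5 astrocyte markers, 1 rose and 2 fell. Of the 4 CA1 markers 3 fell, of the 4 dentate markers 1 fell and of the 3 endothelial markers 2 rose. No defining marker was at 0, and the part of cell type makeup in the levels and in the splicing values below was not tested. In tissue, fewer cells of a type and less RNA per cell cannot be told apart.

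The endocytosis machinery beyond the 10 genes was described with a list of 57 genes. The list was chosen with earlier results of these data known, and all 57 genes were tested. Of these, 22 fell, 9 rose and 26 were not called, against 15.0% of all genes tested called lower and 15.6% called higher, and their median log2 fold change was -0.14. Among 24 coat and adaptor genes, 7 fell and 3 rose. Ap2b1, the beta subunit of the AP-2 adaptor, fell most, from a mean of 389.7 to 224 CPM (log2 fold change -0.80, adjusted p = 0.000796 by edgeR). Necap2, an adaptor-binding protein, rose most, from 53.5 to 75.7 CPM (0.50, adjusted p = 0.00697 by edgeR). The clathrin light chain genes Clta (0.32) and Cltb (0.44) also rose, while the heavy chain gene Cltc was not called (0.09). Snap91, a neuronal adaptor that recruits clathrin, fell (-0.51), and its widely expressed relative Picalm was not called (0.23).

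Among 10 genes of membrane bending, 4 rose and 2 fell. Sh3glb1, an endophilin B gene, rose most (log2 fold change 0.75, adjusted p = 0.00066 by edgeR). Pacsin1, the neuronal syndapin, fell most, from a mean of 313 to 217 CPM (-0.53), while its widely expressed relative Pacsin2 rose (0.54). Sh3gl1 was not called (-0.21, adjusted p = 0.149 by edgeR). Among 9 genes of uncoating and phosphoinositides, 4 fell and none rose. Dnajc6, which encodes the neuronal clathrin-uncoating factor auxilin, fell from 256, 245 and 263 CPM to 161, 148 and 115 CPM (log2 fold change -0.85), whereas its widely expressed relative Gak was not called (0.025). Pip5k1c, the main kinase that makes the phosphoinositide cleaved by synaptojanin at synapses, fell as well (-0.62).

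Among 9 kinases and phosphatases that act on dynamin, synaptojanin and amphiphysin or on adaptors, 7 fell and 1 rose. The calcineurin genes Ppp3r1 (log2 fold change -1.12), Ppp3ca (-0.93) and Ppp3cb (-0.78) fell most. Calcineurin dephosphorylates dynamin and its partners when calcium enters the terminal. Bmp2k, an adaptor kinase, rose (0.65), while its relative Aak1 fell (-0.46). Among 5 partners in bulk endocytosis and actin assembly, 2 fell, with Wipf2 lowest (-0.50), and Dnmbp rose (0.40, adjusted p = 0.046 by edgeR).

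**Figure D3:**
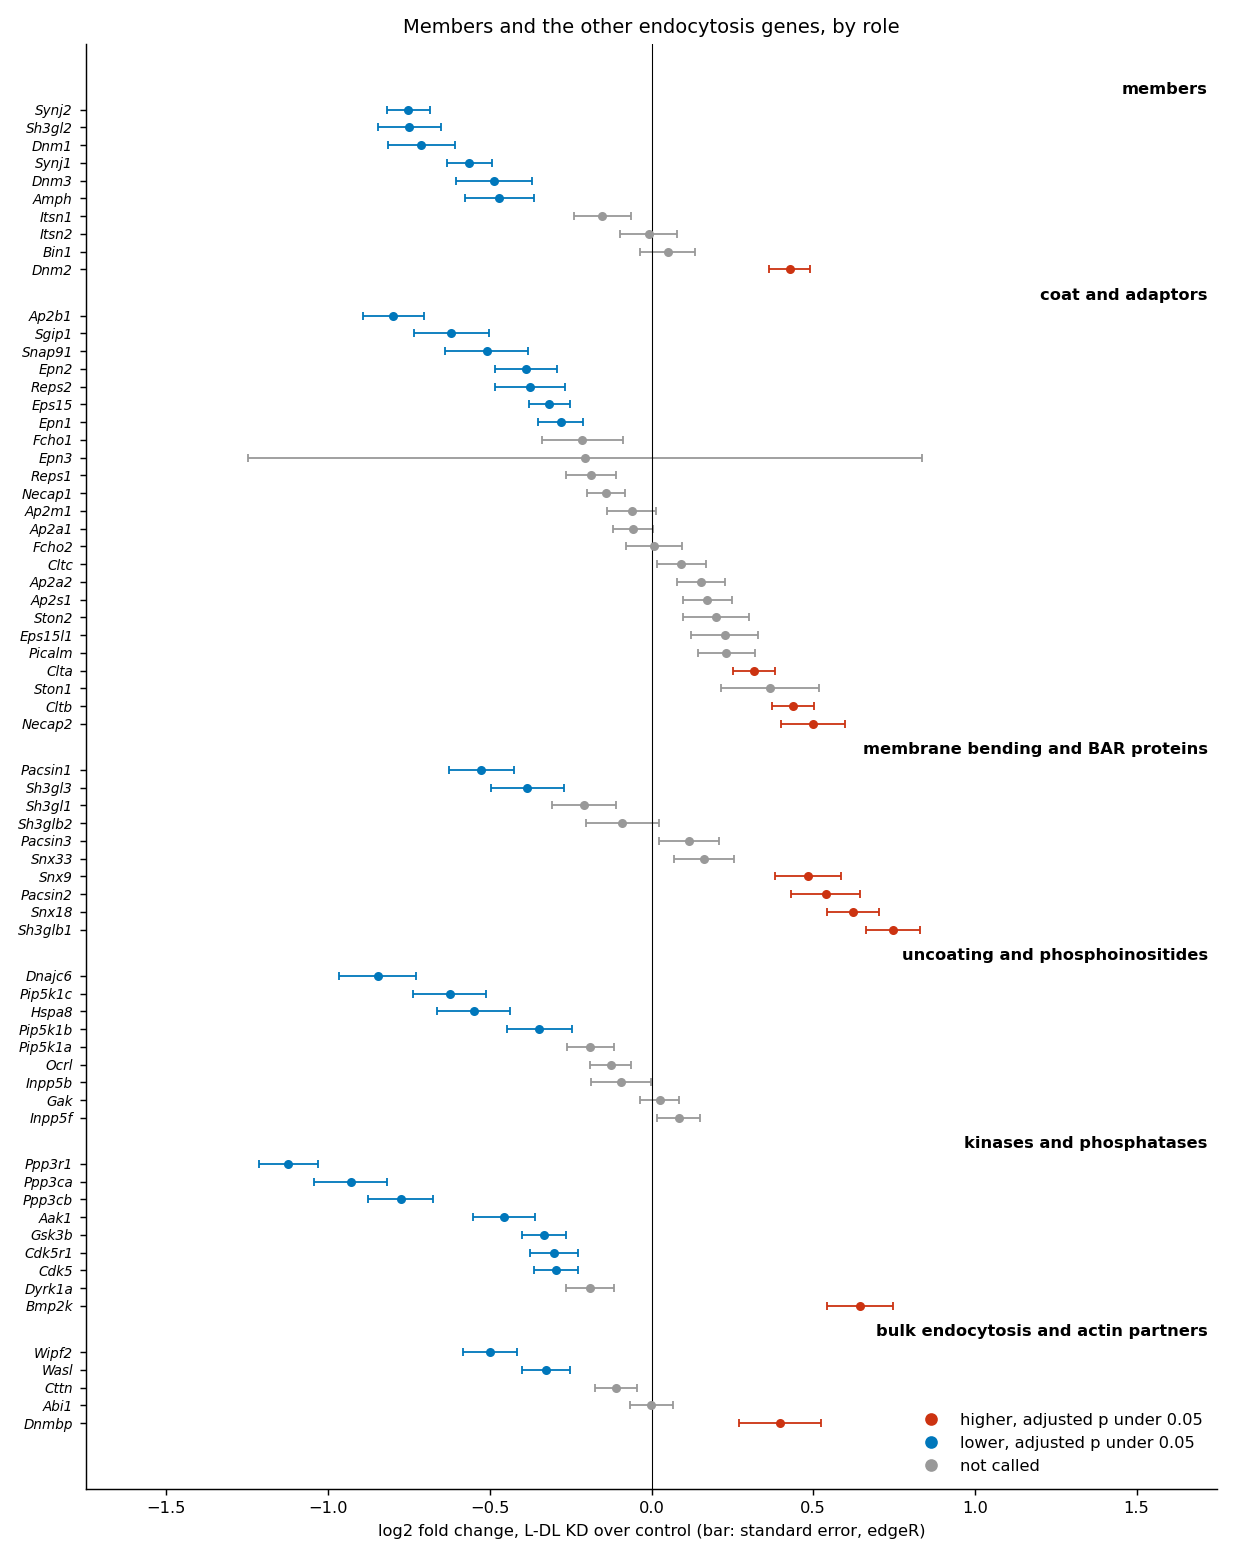
Log2 fold change (L-DL KD over control, x axis) with its standard error from edgeR for the 10 genes and for 57 other endocytosis genes grouped by role. Of the 10, 6 are called lower and 1 higher, and of the 57, 22 are called lower and 9 higher.

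Inclusion of alternative segments was compared as PSI, the inclusion count over its effective length as a share of both forms so scaled. The splicing table holds 3 libraries of each group without replicate numbers, given here in table order. None of the 64 tested events of the 10 genes passed an adjusted p of 0.05 in edgeR's test on junction counts, while 0.255% of the 18829 events tested did. At an unadjusted p under 0.05 there were 18 such events (13 with lower and 5 with higher inclusion in the libraries labelled KD), against 13.3% of all events (8.30% lower and 4.96% higher), and 1 event had an unadjusted p under 0.001, against 0.977%. With limma on the log2 ratio of the forms, 0 of the 64 passed the adjusted threshold as well, with 11 lower and 5 higher at an unadjusted p under 0.05. With a minimum mean of 5 counts for each form, which tested 10847 events and called 4.63% of them, 8 events of the 10 genes passed. They lay in Itsn1, Dnm1, Bin1 (3 events), Dnm3 and Synj1 (2 events), and are marked below.

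**Figure D4:**
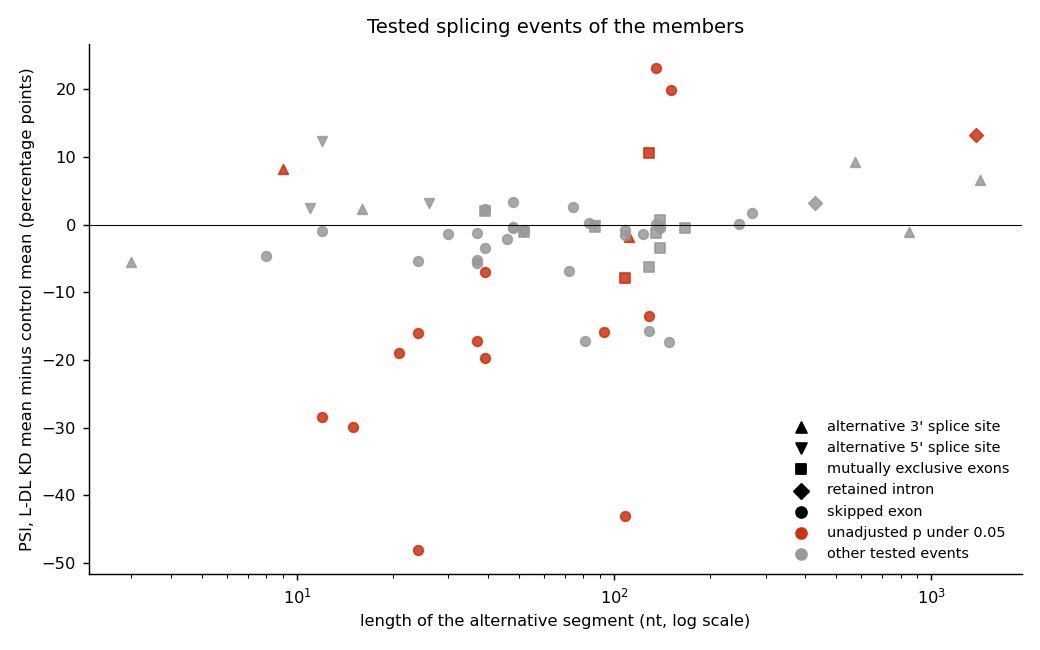
Difference of mean PSI (L-DL KD minus control, percentage points) against the length of the alternative segment (nt, log scale) for the 64 tested events, with the event type as symbol and an unadjusted p under 0.05 in red. The skipped exons in red include 5 events of 12 to 24 nt, all below 0.

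The 15 nt exon 20 of Itsn1 differed most clearly. This microexon lengthens the first SH3 domain in the neuronal form. It had 86, 78 and 70 inclusion counts and 71, 60 and 78 skipping counts in the controls, and 37, 40 and 23 against 100, 133 and 114 in the libraries labelled KD. PSI was 52.5, 54.3 and 45.1% in the controls and 25.3, 21.6 and 15.6% in the other group, with no overlap. The log2 odds of inclusion differed by -1.97 (standard error 0.40, adjusted p = 0.0688 by edgeR), and the adjusted p was 0.0058 with the minimum of 5 counts for each form. The gene's total count did not differ measurably between the groups, as given above.

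The other intersectin events were less clear. An alternative 3′ splice site of Itsn1 that removes 111 nt (chr16:91801527-91801637, coding) was used in 3 reads of each of 2 libraries labelled KD and in none of the other 4 libraries, so that its groups overlapped (adjusted p = 0.353 by edgeR). The 81 nt coding exon of Itsn2 (chr12:4640913-4640993) had a PSI of 67.3, 55.7 and 49.4% in the controls and of 57.3, 29.6 and 33.8% in the other group. These ranges overlapped, and this was the Itsn2 event with the smallest p (adjusted p = 0.531 by edgeR).

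The 12 nt exon 17 of Dnm3 was included in 10, 11 and 8 reads and skipped in 16, 16 and 19 in the controls. In the libraries labelled KD it was included in 4, 3 and 1 and skipped in 35, 47 and 26. PSI was 36.8, 39.03 and 28.2% against 9.62, 5.61 and 3.46%, with no overlap, and the log2 odds differed by -2.91 (standard error 0.79, adjusted p = 0.149 by edgeR, and 0.0299 with the minimum of 5 counts for each form). The counts behind each value were 26 to 50. The 12 nt exon 14 of Dnm2, by contrast, had a PSI of 76.5, 67.0 and 67.7% in the controls and of 63.5, 70.7 and 74.1% in the other group. Its groups overlapped, and its log2 odds differed by -0.08 (standard error 0.43, adjusted p = 0.967 by edgeR). The corresponding exon of Dnm1 had too few skipping reads to be tested.

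Dnm1 and Dnm2 each carry a pair of 139 nt exons of which 1 is used, exon 10 in both genes. In Dnm1 the upstream exon of the pair (chr2:32334682-32334820) took 29.0, 30.5 and 30.8% of the junction counts in the controls and 24.8, 27.6 and 27.4% in the libraries labelled KD. These values lay apart, but the log2 odds differed by only -0.25 (standard error 0.21, adjusted p = 0.676 by edgeR) at 1394 to 2984 counts in each library. In Dnm2 the upstream exon (chr9:21478899-21479037) took 49.4, 40.8 and 52.9% against 40.8, 56.2 and 48.2%. The groups overlapped, and the log2 odds differed by 0.05 (standard error 0.34, adjusted p = 0.976 by edgeR). The Dnm2 event with the smallest p (adjusted p = 0.633 by edgeR) was a 74 nt coding exon (chr9:21457503-21457576), whose PSI was 90.1 to 99.0% in the controls and 95.6 to 98.2% in the other group.

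At its 3′ end Dnm1 has alternative last segments. A 1386 nt stretch (chr2:32309065-32310450) lies after the stop codon of Dnm1-204, in which it is retained, and parts of it are coding in Dnm1-202 and Dnm1-209. Its PSI was 67.7, 66.7 and 67.6% in the controls and 78.6, 83.4 and 79.6% in the libraries labelled KD, apart by more than the range within either group. The log2 odds differed by 1.01 (standard error 0.24, adjusted p = 0.110 by edgeR, and 0.0106 with the minimum of 5 counts for each form). The mean difference was 13.2 percentage points, or 8.74 without effective lengths. The last exon of Dnm1-202 also spans the downstream boundary of this stretch, so that some inclusion reads may belong to that transcript. The 37 nt exon 22 of Dnm1-201 (chr2:32310451-32310487), which holds the stop codon, had a PSI of 54.2 ± 5.18% against 37.0 ± 7.12% (SD, n = 3) in 1 event (adjusted p = 0.338 by edgeR). In the event on the same exon with the most counts it had 31.6 ± 2.41% against 26.4 ± 4.37% (adjusted p = 0.6 by edgeR), and those groups overlapped.

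Bin1 had 6 events of 11 tested at an unadjusted p under 0.05, which lie on 4 exons and in part share reads, while its total level did not differ measurably. Its exon 7 (93 nt, chr18:32414945-32415037), a coding exon of the neuronal form, had a PSI of 53.4, 49.4 and 52.6% in the controls and of 39.2, 36.4 and 32.3% in the libraries labelled KD. The groups lay apart at 500 to 747 counts, and the log2 odds differed by -0.93 (standard error 0.24, adjusted p = 0.140 by edgeR, and 0.0176 with the minimum of 5 counts for each form). Exon 14 (24 nt, chr18:32429700-32429723) had a PSI of 66.9, 46.4 and 72.2% against 20.8, 15.5 and 4.99%. Only 10 to 63 counts stood behind each of these values, and the log2 odds differed by -3.25 (standard error 0.86, adjusted p = 0.142 by edgeR, and 0.0268 with the minimum of 5 counts for each form).

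The later alternative exons of Bin1 lie in the clathrin and AP-2 binding region of the neuronal form. Exon 15 (108 nt, chr18:32430750-32430857), set against exon 16 (72 nt), took 18.1, 18.5 and 16.8% in the controls and 11.0, 9.83 and 8.87% in the other group. These groups lay apart, and the log2 odds differed by -0.96 (standard error 0.29, adjusted p = 0.186 by edgeR, and 0.0351 with the minimum of 5 counts for each form). As a skipped exon, exon 15 had 53.5, 57.6 and 100.0% against 31.8, 29.5 and 20.7% between one pair of neighbouring exons (adjusted p = 0.234 by edgeR), and 51.1 ± 5.51% against 50.3 ± 18.2% (SD, n = 3, overlapping) between another pair with more counts (adjusted p = 0.929 by edgeR). Exon 12 (129 nt, chr18:32426224-32426352) had 66.3, 58.9 and 60.5% against 52.1, 51.7 and 41.7% (adjusted p = 0.288 by edgeR). Set against exon 15, exon 12 took 75.6 ± 4.61% against 86.2 ± 4.90% (SD, n = 3), higher in the libraries labelled KD (adjusted p = 0.267 by edgeR).

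Amph had no event at an unadjusted p under 0.05. Its smallest p was that of the 12 nt at the end of exon 16, which was included in 47.6, 54.3 and 52.5% in the controls and in 67.4, 56.8 and 67.4% in the other group. These values lay apart, and the log2 odds differed by 0.73 (standard error 0.35, adjusted p = 0.390 by edgeR).

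Synj1 had 5 events at an unadjusted p under 0.05 among 13 tested. Its 24 nt exon 32 holds the stop codon of Synj1-202, the short form of nerve terminals. When it is skipped the reading frame runs on into the next exon, as in Synj1-203, which encodes the longer form found in more tissues. PSI was 88.6, 92.2 and 96.3% in the controls and 79.0, 68.7 and 81.6% in the libraries labelled KD, with no overlap. The skipping form had 20, 11 and 5 reads in the controls and 18, 32 and 17 in the other group, and the inclusion form had 180, 150 and 151 against 78, 81 and 87. The log2 odds differed by -1.89 (standard error 0.53, adjusted p = 0.159 by edgeR, and 0.0330 with the minimum of 5 counts for each form). A 21 nt variant of this exon, which lacks its first 3 bases, had 83.8 ± 8.96% against 64.9 ± 9.29% (SD, n = 3; adjusted p = 0.346 by edgeR) and shares the skipping reads.

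The 39 nt exons 26 and 28 of Synj1 lie upstream, in the coding sequence of the proline-rich region. Exon 26 had a PSI of 98.5, 100.0 and 99.3% against 91.8, 87.1 and 98.0%, which rests on 2, 0 and 1 skipping reads in the controls and 7, 8 and 1 in the other group (adjusted p = 0.158 by edgeR). In another event on exon 26, with only 14 to 41 counts, the groups overlapped (adjusted p = 0.916 by edgeR). Exon 28 had 53.9, 61.2 and 55.5% in the controls and 41.9, 42.9 and 26.7% in the libraries labelled KD in 1 event. Those values lay apart, with a log2 odds difference of -1.16 (standard error 0.43, adjusted p = 0.294 by edgeR). In the event on exon 28 with the most counts, which uses another neighbouring exon, PSI was 95.2 ± 3.03% against 91.8 ± 4.17% (SD, n = 3), and the groups overlapped (adjusted p = 0.678 by edgeR). The 9 nt at the start of exon 12 went the other way, from 3.02, 5.60 and 1.33% to 11.1, 7.89 and 15.6%. Their log2 odds differed by 1.92 (standard error 0.57, adjusted p = 0.184 by edgeR, and 0.0442 with the minimum of 5 counts for each form).

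Synj2 had 2 events at an unadjusted p under 0.05, both on exon 22 of Synj2-201 and both with higher inclusion. The 135 nt exon (chr17:6029700-6029834, coding) had a PSI of 35.4, 25.6 and 22.5% in the controls and of 52.0, 40.1 and 60.9% in the libraries labelled KD. The groups lay apart at 103 to 143 counts, and the log2 odds differed by 1.43 (standard error 0.47, adjusted p = 0.238 by edgeR). A 151 nt variant of the exon with an earlier 3′ splice site had 14.2 ± 1.09% against 34.1 ± 11.7% (SD, n = 3; adjusted p = 0.240 by edgeR) and shares the skipping reads.

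**Figure D5:**
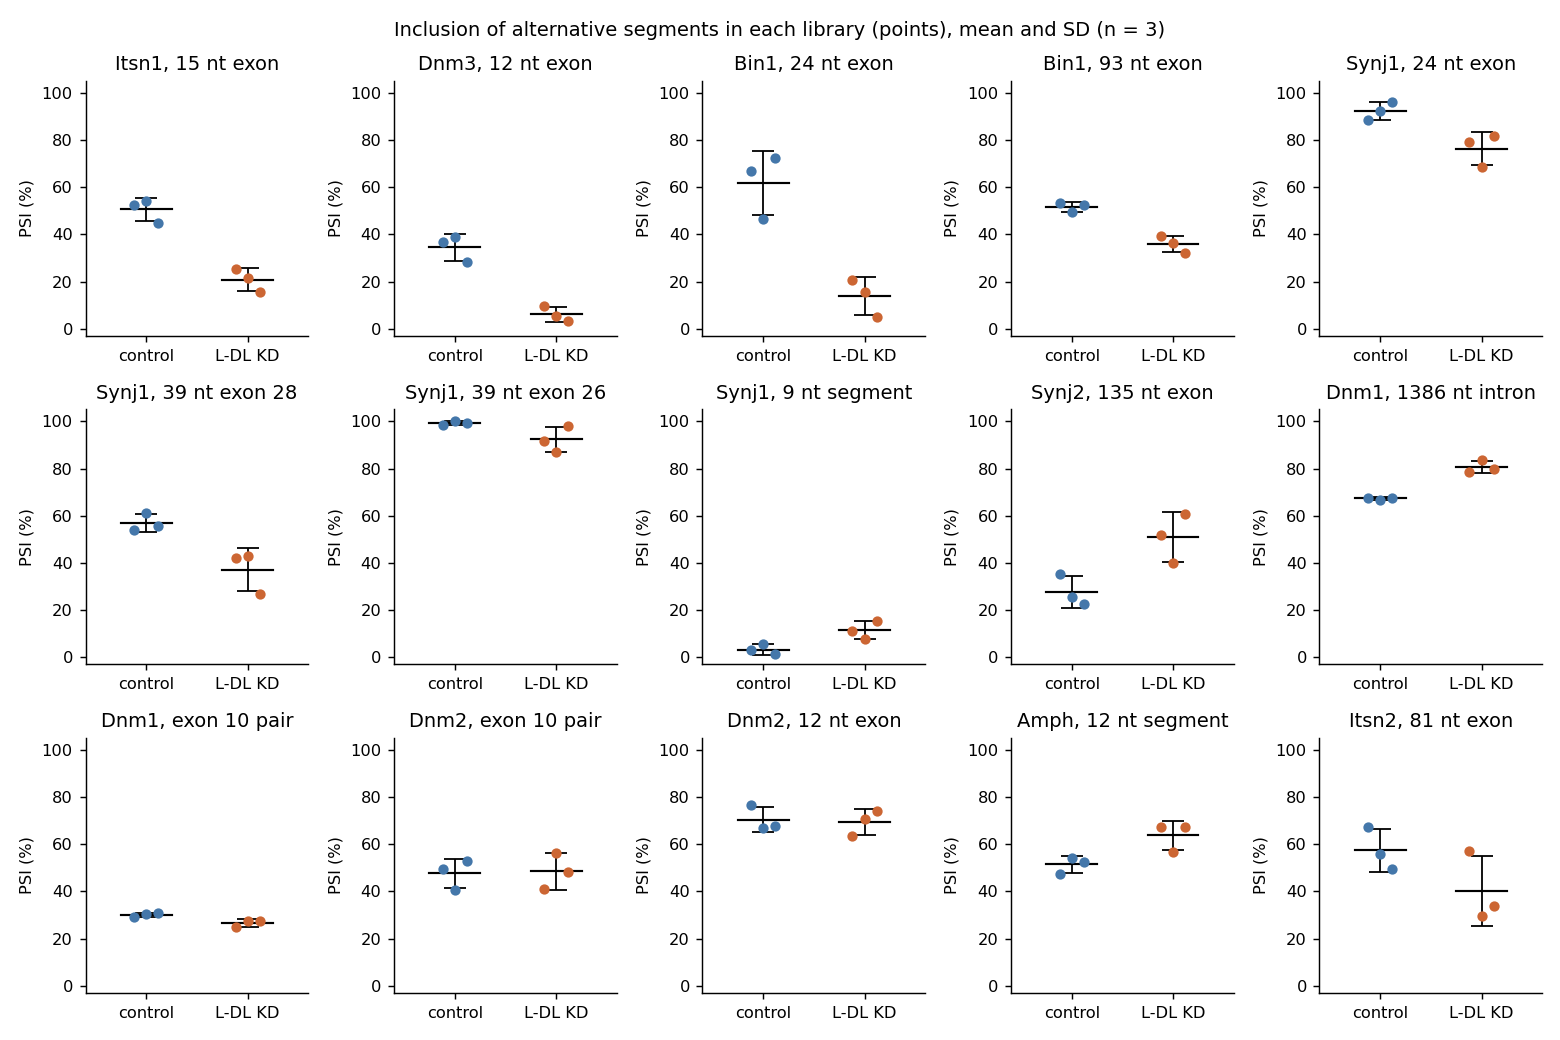
PSI (%) of 15 alternative segments in each library (points), with mean and SD over the 3 libraries of each group. The Itsn1, Dnm3, Bin1 and Synj1 exons of the first 7 panels lie lower in all 3 L-DL KD libraries, the 9 nt Synj1 segment, the Synj2 exon, the Dnm1 intron and the Amph segment lie higher, and both Dnm2 panels and the Itsn2 panel overlap.

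Over the 64 tested events the estimate was negative in 44 and positive in 20, while 52.6% of all events tested had a negative estimate. The groups did not overlap in 21 of the 64 (14 lower, against 10.8% of all events, and 7 higher, against 7.60%). Among skipped exons of 27 nt or less, 8 events of the 10 genes were tested, of which some share reads. All 8 had a negative estimate and 5 had an unadjusted p under 0.05, against 36.9% of the 452 such events tested in all genes. Over events of every kind and length this share was 8.30%, as given above.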

How the data were processed

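Hippocampal RNA from 3 control and 3 L-DL KD libraries was enriched with oligo(dT) and sequenced as read pairs. For each Ensembl gene the authors deposited raw counts without normalization on GRCm38. The submitters' processing notes name HISAT2 (2.1.0), HTSeq (0.6.1) and Bowtie (1.1.2), and whether counting used strand is not given in the sources used here. Exons of Synj1, Synj2, Dnm2, Dnm3, Bin1 and Itsn2 overlap genes on the opposite strand, whose reads could then be included. For splicing the authors deposited rMATS junction counts of both forms with effective lengths. Their p-values, FDR and inclusion differences were not used, except that the difference column (first sample minus second, defined by the study as L-DL KD minus control) identified the first sample as L-DL KD.

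Counts were normalised by TMM and analysed with edgeR (4.0.16) in R (4.3.3) for genes with at least 10 counts in 3 libraries. Events with at least 20 counts on average in a library and 1 of each form were fitted with edgeR on 12 columns, 1 for each form and library, so that a change of inclusion is a difference of log2 odds. Adjustment ran over all genes or all events fitted. Ratios were compared by exact permutation with scipy (1.17.1). GENCODE M21 gave lengths, exon numbers and sequences, and the tests were tested on simulated data.

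Alternatives were scaling by library size, DESeq2 (1.42.0), other filters, a replicate block, limma (3.58.1) with a pseudocount of 0.5, 1 event for each segment, PSI without lengths and leaving out each library. Members, lists and ratios were chosen with earlier results of these data known. Named were all 10 genes, the called gene with the largest rise and fall in each role of the longer list, Sh3gl1, the event with the smallest p in each gene, events with an unadjusted p under 0.05 and the paired exons of dynamins. Other genes and events, those of the closing section included, were named after their values were seen.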

Additional observations from a re-analysis of the deposited data

How the results depend on the processing

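The calls of the 10 genes (6 lower, 1 higher) were the same in number with scaling by library size, DESeq2, no filter, a filter of 1 CPM and the replicate block. Leaving out 1 library gave 5 to 6 lower and 1 higher. The 57 other genes (22 lower, 9 higher) gave 21 lower and 9 higher with the replicate block, and 15 to 26 lower and 8 to 10 higher without 1 library. Same-numbered libraries did not deviate together (correlations 0.05, 0.13 and -0.11), so the numbers were not taken to pair them. Bin1 ranged from -0.015 to 0.13 and Itsn2 from -0.063 to 0.074 without 1 library, and Itsn2 was 0.023 with scaling by library size, neither being called anywhere. The ratio differences ranged without 1 library from 1.03 to 1.28 (Dnm2 to Dnm1), 0.50 to 0.56 (Bin1 to Amph), 0.37 to 0.72 (Sh3gl1 to Sh3gl2), 0.19 to 0.24 (Dnm3 to Dnm1), 0.09 to 0.18 (Itsn2 to Itsn1) and -0.24 to -0.14 (Synj2 to Synj1). Of the splicing events, 8 passed in place of 0 with at least 5 counts of each form, 1 passed at an unadjusted p under 0.001, and 0 passed with any library left out. Events at an unadjusted p under 0.05 numbered 11 to 15 lower and 4 to 7 higher without 1 library. Uncalled events changed sign without 1 library, with log2 odds differences of -0.58 to 0.18 (Dnm1 MXE_1543), -0.11 to 0.094 (Dnm1 MXE_1544), -0.18 to 0.27 (the Dnm2 exon pair) and -0.24 to 0.15 (the 12 nt exon of Dnm2). The cause was not tested. No paired analysis was possible for splicing because the table carries no replicate numbers.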

Other observations

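Splicing of the 57 other endocytosis genes was listed as well. Of their 326 events, 181 in 44 genes were tested, and 30 had lower and 10 higher inclusion at an unadjusted p under 0.05, against 8.30% and 4.96% of all events tested. Snap91, which recruits clathrin in neurons, had a 15 nt exon (chr9:86798830-86798844) with a PSI of 96.8, 95.4 and 94.7% in the controls and of 79.1, 71.8 and 80.7% in the libraries labelled KD. This passed the adjusted threshold (log2 odds difference -2.68, standard error 0.38, adjusted p = 0.0157 by edgeR). A 104 nt exon of Epn1 (chr7:5082018-5082121) passed as well, from 100.0, 99.8 and 100.0% to 97.4, 96.2 and 97.2% (adjusted p = 0.0497 by edgeR).

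Both clathrin light chain genes, whose totals rose, had lower inclusion of an exon of the neuronal form without passing the threshold. The 54 nt exon of Cltb (chr13:54597026-54597079) had 55.4, 58.8 and 60.4% against 39.4, 37.7 and 33.1% (adjusted p = 0.0516 by edgeR). The 36 nt exon of Clta (chr4:44031400-44031435) had 36.3, 31.9 and 32.7% against 20.5, 18.6 and 15.1% (adjusted p = 0.0667 by edgeR). The 6 nt exon of Ap2m1 (chr16:20540808-20540813), the AP-2 subunit that binds cargo, had 94.9, 93.6 and 97.5% against 88.9, 86.7 and 86.0% (adjusted p = 0.0801 by edgeR). Other events of Epn1 and Snap91 went the other way. A 320 nt exon of Epn1 (chr7:5083663-5083982) was set against the other exon of a mutually exclusive pair. It took a small share, 0.243, 0.342 and 0.0881% in the controls and 1.17, 1.62 and 1.96% in the libraries labelled KD (adjusted p = 0.0569 by edgeR). A 15 nt stretch at an alternative 3′ splice site of Snap91 (chr9:86781705-86781719) had 24.6, 29.9 and 31.5% against 43.2, 51.7 and 53.1% (adjusted p = 0.119 by edgeR). The part of cell type makeup in these values was not tested.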
